A study of Mus musculus with 10 samples.

Results

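The genes described here are 43 genes for plasma proteins that hepatocytes secrete, chosen as a list of symbols and found once each among the 49585 genes counted. By role they are 11 carrier proteins, 4 heavy chains of the inter-alpha-trypsin inhibitors, 4 genes for fibrinogen and the B chain of factor XIII, 9 clotting factors with kininogen and plasminogen, 5 serpins and 10 complement genes. The study sequenced bulk RNA from a mouse model of hepatocellular carcinoma in which the Rb family of tumour suppressors is knocked out. Its labels describe liver cells sorted for YFP, a reporter of Cre recombination at floxed alleles, in 5 groups of 2 samples, of which the sorted fractions Epcam-, Epcamhigh and Thy1+ were not analysed here. Counts were tied by column name to 3 pairs of libraries. The first is a pair of columns whose names hold Sox9 and a tag TKO, the second a pair named Sox9, taken as the Sox9-derived organoids, and the third a pair named Ck19, taken as the Ck19-derived organoids. Organoids are three-dimensional cultures of epithelial cells. Sox9 marks duct cells and liver progenitors, and Ck19 is the duct keratin that Krt19 encodes. The labels say that the YFP-positive cells had recombined floxed alleles, and the series title names the triple knockout, but no sample label gives genotype, strain, age or treatment beyond this, nor the Cre driver or the culture conditions. Nothing says that the libraries of a pair came from separate animals or cultures, so p-values measure the spread between these libraries, which may be technical.

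Hepatocytes make most of the protein of blood plasma, and they secrete it straight into the blood that flows past them. Carriers such as albumin, transferrin and haptoglobin hold hormones, metals, haem or lipids in solution. Clotting factors circulate as inactive precursors that end in thrombin, which turns fibrinogen into fibrin, serpins hold these proteases in check, plasminogen dissolves the clot, and the complement cascade marks and lyses microbes through its central protein C3. Bile duct cells come from the same embryonic precursors as hepatocytes but as a rule do not secrete these proteins in bulk.

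Promoters of 3 genes are shown because these genes stood at different levels in the organoids, from 30905 fragments over a pair (C3, Sox9-derived) to 2 (Fgb, Ck19-derived). RefSeq windows on GRCm38.p6, from 250 bases before to 50 after a start, were found for 34 of the 43 genes (36 windows, and 32851 windows over all genes). Windows were searched on both strands, matches to 4 of the motifs are given here, and capitals mark them. The motif for HNF4, a nuclear receptor of hepatocytes, was CAAAGNCCA. For the C/EBP family of leucine zipper factors it was TTGCNNAA. For the FOXA family of forkhead factors it was TGTTTNC, and the TATA box, where transcription starts are set, was searched as TATAAA. The windows are those of Alb (chr5:90460620-90460919, plus strand, FOXA and C/EBP letters), Fgb (chr3:83049814-83050113, minus strand, FOXA and C/EBP letters) and C3 (chr17:57228087-57228386, minus strand, C/EBP and TATA letters), each on the strand of its gene.
Alb: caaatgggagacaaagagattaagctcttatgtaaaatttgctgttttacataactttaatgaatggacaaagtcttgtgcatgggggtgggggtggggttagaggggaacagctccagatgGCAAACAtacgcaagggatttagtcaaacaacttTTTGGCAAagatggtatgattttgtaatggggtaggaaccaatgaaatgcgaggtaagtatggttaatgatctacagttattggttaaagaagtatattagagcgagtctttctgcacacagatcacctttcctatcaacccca
Fgb: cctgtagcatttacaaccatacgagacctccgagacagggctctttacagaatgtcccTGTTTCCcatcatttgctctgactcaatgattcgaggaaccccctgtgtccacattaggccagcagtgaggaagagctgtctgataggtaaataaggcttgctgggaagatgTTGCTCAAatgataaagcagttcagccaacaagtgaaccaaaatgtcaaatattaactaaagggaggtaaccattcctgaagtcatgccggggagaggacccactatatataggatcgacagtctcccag
C3: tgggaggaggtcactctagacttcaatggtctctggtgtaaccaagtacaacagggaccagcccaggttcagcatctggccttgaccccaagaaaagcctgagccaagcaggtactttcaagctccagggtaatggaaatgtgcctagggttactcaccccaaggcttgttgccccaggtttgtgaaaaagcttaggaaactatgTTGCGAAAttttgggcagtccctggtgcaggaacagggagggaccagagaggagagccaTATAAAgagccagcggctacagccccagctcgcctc
The C/EBP letters were in 12 of the 36 windows (33.3%) against 10.8% of all windows, and the FOXA letters in 16 (44.4%) against 20.5%. The HNF4 letters were in 1 (2.78%) against 1.98% and the TATA letters in 6 (16.7%) against 13.6%. Position was not part of the search, so TATA letters need not be a TATA box. Those marked in C3 lay 14 to 19 bases after the start. Matches of different motifs overlapped in 0 cases in these windows. A match of letters is a description of the sequence, and nothing is read from a window without one.

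Libraries held 53280136 and 59664959 fragments assigned to genes in the TKO-tagged Sox9 pair, 36606008 and 33154972 in the Sox9-derived pair and 31883180 and 32747944 in the Ck19-derived pair. The bile duct keratin Krt19 stood at 0.619 and 1.61 CPM (fragments of the gene per 1e+06 fragments of the library) in the TKO-tagged pair, against 3120 and 2987 CPM in Sox9-derived and 2453 and 1945 CPM in Ck19-derived organoids, and Epcam, an epithelial surface protein, at 8.99 and 5.61 CPM against 2101 to 3833 CPM. The TKO-tagged pair therefore goes against a label of biliary organoids, and it is called by its tag throughout and never averaged with the untagged Sox9 pair. It lies in a different deposited table from the organoid pairs, so table and group cannot be told apart in any comparison with it. Rb1 had 4.50 and 5.40 CPM in the TKO-tagged pair, 14.5 and 12.6 CPM in Sox9-derived and 21.0 and 21.8 CPM in Ck19-derived organoids, and since whole-gene counts without an unrecombined control do not show a deletion, these values do not check the knockout.

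The TKO-tagged pair carried the plasma protein genes at a high level, and both organoid pairs carried a few of them and little of the rest. The 43 genes summed to 121221 and 120822 CPM in the TKO-tagged pair, which is 12.1% of each library. They summed to 4368 and 3433 CPM in Sox9-derived organoids (0.437% and 0.343% of the library) and to 1378 and 1156 CPM in Ck19-derived organoids (0.138% and 0.116%). No pair overlapped another in this sum. The TKO-tagged mean was 31.0 times that of Sox9-derived and 95.5 times that of Ck19-derived organoids (53.6 and 163.5 times on library sizes scaled by TMM), and the Sox9-derived mean was 3.08 times that of Ck19-derived organoids (3901 ± 661 against 1267 ± 157 CPM, SD, n = 2 each). With 2 libraries against 2, the exact two-sided permutation test gave p = 0.333 in each case, the smallest it can give. In bulk RNA, fewer cells of a type and less RNA per cell cannot be told apart.

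**Figure D1:**
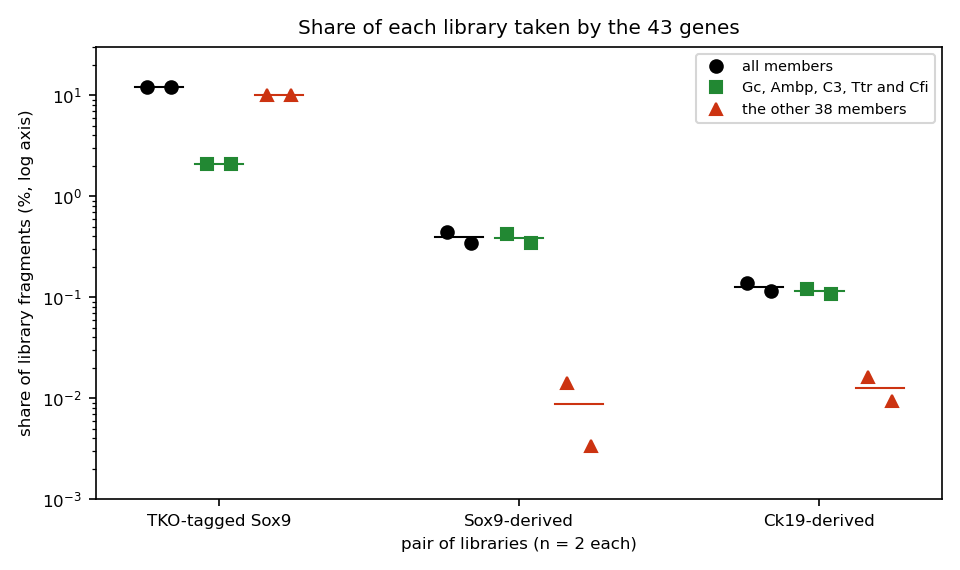
Share of library fragments (%, log axis) held by the 43 genes, by Gc, Ambp, C3, Ttr and Cfi, and by the other 38, with a point per library and a line at the mean of each pair (n = 2). The 43 genes held 12.1% of both TKO-tagged libraries, 0.343% to 0.437% of Sox9-derived and 0.116% to 0.138% of Ck19-derived libraries, where the 5 named genes made up most of the sum.

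Most of the organoid sum came from 5 genes, Gc, Ambp, C3, Ttr and Cfi, which were picked out after their values were seen. They held 96.8% and 99.0% of the sum in Sox9-derived and 88.3% and 91.9% in Ck19-derived organoids, against 17.2% and 17.1% in the TKO-tagged pair. The other 38 genes summed to 100381 and 100161 CPM in the TKO-tagged pair, but to 141 and 33.4 CPM in Sox9-derived and 161 and 93.3 CPM in Ck19-derived organoids, where the organoid pairs overlapped. Gc alone made up 76.7% and 63.9% of the Sox9-derived and 25.4% and 14.6% of the Ck19-derived sum. Without Gc, the other 42 genes summed to 1019 and 1238 CPM in Sox9-derived against 1027 and 988 CPM in Ck19-derived organoids, a ratio of 1.12 with overlapping libraries. All 43 genes stood at 10 CPM or more in both TKO-tagged libraries. In Sox9-derived organoids 7 and 6 genes did so and 16 and 15 had 0 fragments, and in Ck19-derived organoids 9 and 6 did so and 11 and 7 had 0 fragments. Among the 20 most abundant genes of a library, 8 and 11 in the TKO-tagged pair were plasma protein genes, against 1 and 0 in Sox9-derived (Gc, at rank 8) and 0 and 0 in Ck19-derived organoids.

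**Figure D2:**
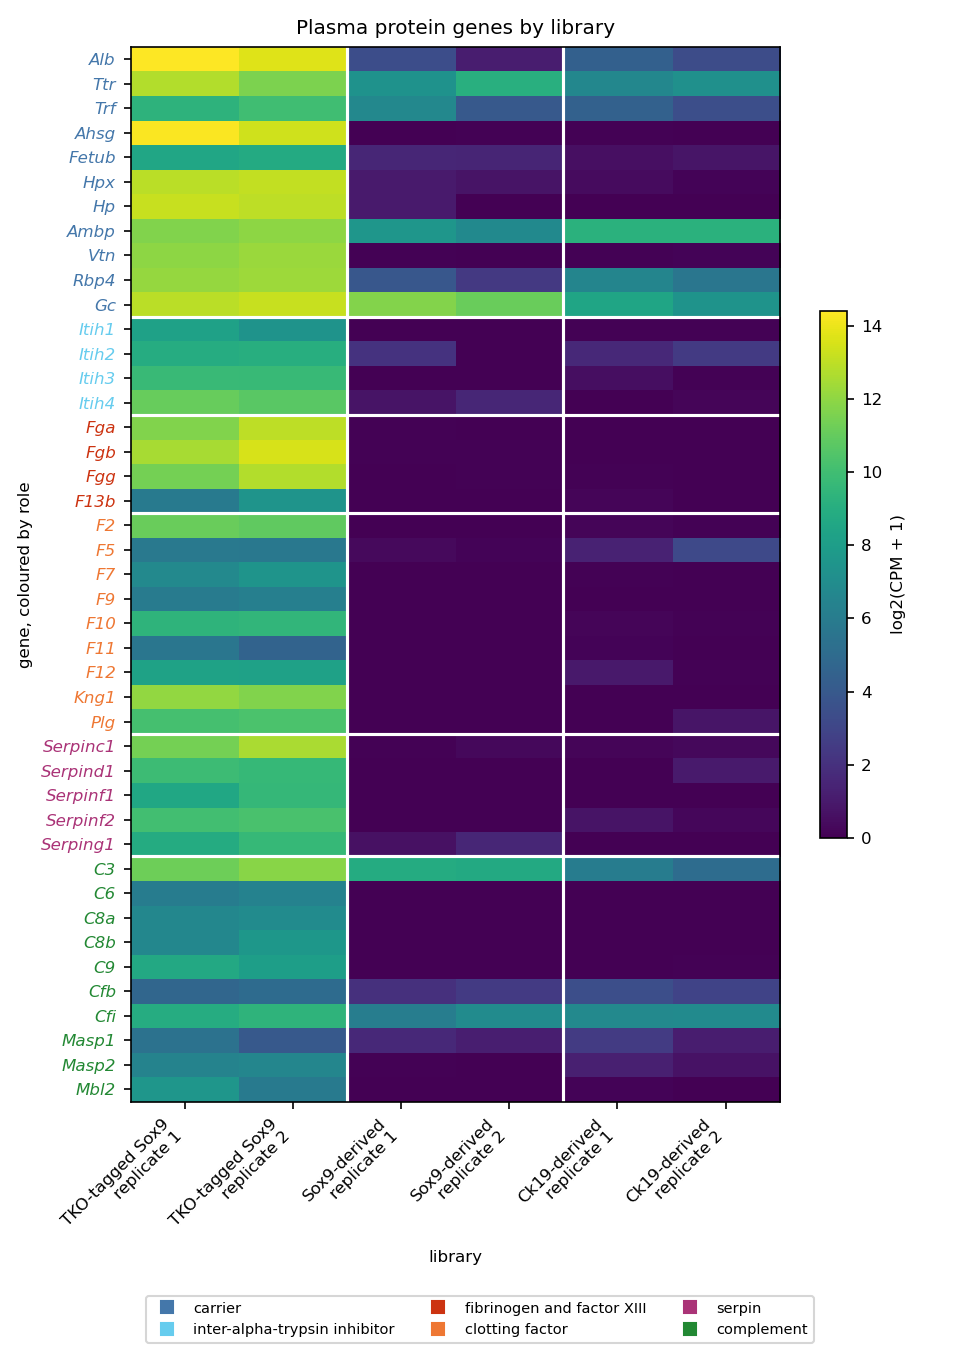
Levels of the 43 genes, as log2(CPM + 1) by colour, with genes down the page coloured by role and the 6 libraries across it. The TKO-tagged columns are bright for every gene, while the organoid columns are mostly dark, with Gc, Ambp, C3, Ttr and Cfi standing out.

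Per length of transcript, the order of the genes differed between the pairs. In CPM per kilobase of exon (FPKM), the highest in the TKO-tagged pair were Ahsg (mean 10666), Alb (7451), Hp (5458), Hpx (5396) and Gc (4645), and the lowest were F5 (7.28), Cfb (10.2) and Masp1 (10.6). In Sox9-derived organoids the highest mean FPKM were those of Gc (1503), Ttr (289), Ambp (107), C3 (86.0) and Cfi (43.2). In Ck19-derived organoids they were those of Ambp (420), Gc (141), Ttr (103), Rbp4 (55.5) and Cfi (51.0). Ahsg thus ranked first in the TKO-tagged pair and 20th and 24th in the organoid pairs, and Cfb, second lowest of the 43 in the TKO-tagged pair, ranked 9th in both kinds of organoid. Another annotated gene shares 79.5% of the exon bases of Cfb, so its FPKM may be too low in every pair and its ranks are uncertain.

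Against the organoids, every one of the 43 genes was higher in the TKO-tagged pair. The comparison was made with edgeR's quasi-likelihood test in 1 fit of the 6 libraries, with p-values adjusted by Benjamini-Hochberg over 18337 genes and a threshold of 0.05. Against Ck19-derived organoids 43 of 43 passed as higher (adjusted p 0.000547 to 0.0250), beside 14.4% of all genes tested as higher and 13.1% as lower (27.5% in all). Against Sox9-derived organoids 43 of 43 passed as higher (adjusted p 0.000574 to 0.0251), beside 14.7% of all genes as higher and 12.2% as lower (26.9% in all). Both TKO-tagged libraries lay above both organoid libraries for 43 of 43 genes in each comparison, as they did for 18.4% (Ck19-derived) and 18.3% (Sox9-derived) of all genes tested, while 58.7% and 56.5% of all genes lay below and 0 of the 43 did. The median log2 fold change of the 43 was 12.21 over Ck19-derived and 14.47 over Sox9-derived organoids, against -0.08 and -0.07 over all genes. With the genes that had 0 fragments in an organoid pair set at their lower bound (4 in Ck19-derived, 11 in Sox9-derived), the medians were 12.05 and 12.49. The comparisons share the TKO-tagged libraries.

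These fold changes rest on scaling that treats the median gene as unchanged. On library totals alone the median log2 fold change of all genes was -0.85 and -0.86, in place of -0.08 and -0.07, and the split of calls against Ck19-derived organoids was 1810 higher to 5564 lower, in place of 2635 to 2411. Against Sox9-derived organoids it was 1957 to 5448, in place of 2695 to 2236. All 43 genes stayed called as higher under that scaling in both comparisons. Leaving out 1 library moved single calls: Alb, Ttr, Trf, Itih2, F5, Cfb, Cfi, Masp1 or Mbl2 missed the threshold in at least 1 such fit against Ck19-derived organoids, with 36 to 43 genes called and adjusted p of 0.0506 to 0.175 for the calls lost. Trf, Gc, Itih2 or Masp1 did so against Sox9-derived organoids, with 41 to 43 called and adjusted p of 0.0557 to 0.0899. Without either Ck19-derived library the total over all genes against Ck19-derived organoids was 1320 and 1329, in place of 5046. Against Sox9-derived organoids the total of 4931 was 2474 and 2519 without a Sox9-derived library and 2764 and 2740 without a Ck19-derived one.

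By their sums, hepatocyte genes that are not secreted and markers of blood, immune, endothelial and stellate cells were also higher in the TKO-tagged pair. Biliary markers were lower. Of 19 hepatocyte genes that are not secreted, such as Cps1 of the urea cycle, 18 passed as higher against Ck19-derived and 19 against Sox9-derived organoids. Over all genes tested, 14.4% and 14.7% did so. The 19 genes summed to 13505 and 17551 CPM in the TKO-tagged pair, 286 and 318 CPM in Sox9-derived and 364 and 342 CPM in Ck19-derived organoids. The 12 biliary genes summed to 509 and 1204 CPM in the TKO-tagged pair, 33159 and 29084 CPM in Sox9-derived and 15940 and 15605 CPM in Ck19-derived organoids. Erythroid genes (6) summed to 301 and 2538 CPM in the TKO-tagged pair, against at most 0.300 CPM in an organoid library. Macrophage genes (8) summed to 332 and 253 CPM, stellate and fibroblast genes (9) to 389 and 228 CPM, endothelial genes (8) to 133 and 92.9 CPM and lymphocyte genes (9) to 22.3 and 10.8 CPM in the TKO-tagged pair. In the organoids these 4 lists reached at most 26.6, 2.84, 2.81 and 1.48 CPM in Sox9-derived and 84.9, 2.48, 10.1 and 4.01 CPM in Ck19-derived libraries. The macrophage sum in the organoids was mostly Cd68 and Csf1r and the endothelial sum mostly Oit3, while Marco was at 0 in 3 of the 4 organoid libraries. Their part in the result was not tested.

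**Figure D3:**
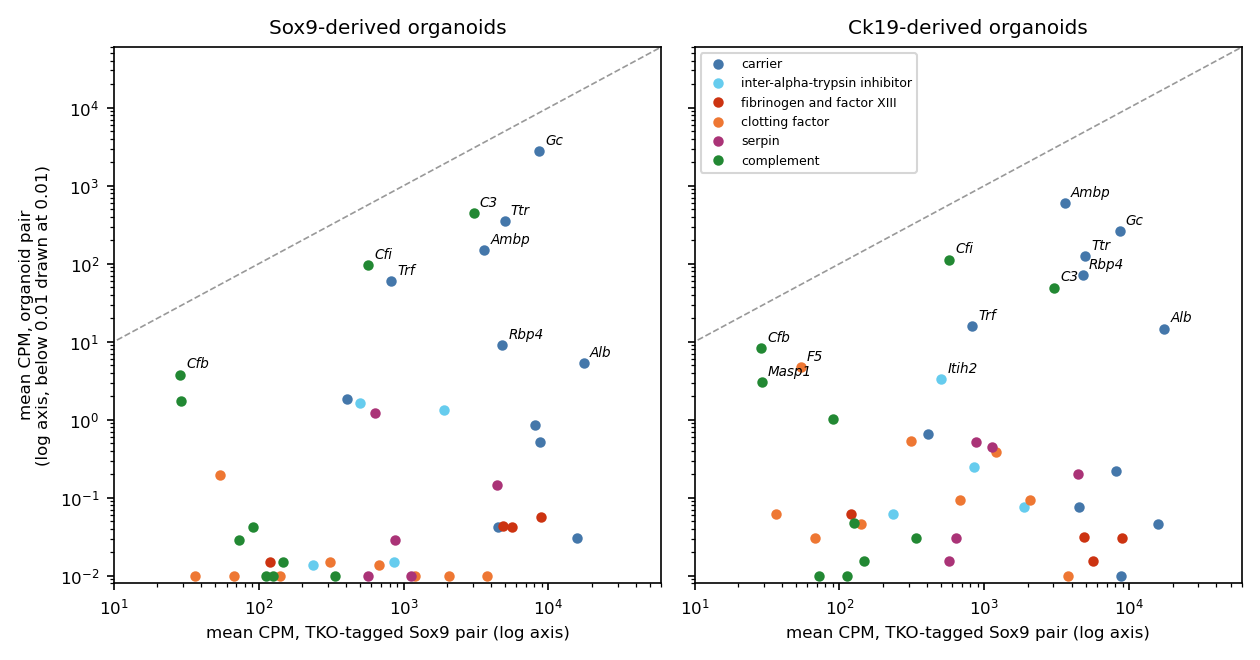
Mean CPM of each gene in Sox9-derived (left) and Ck19-derived (right) organoids against its mean CPM in the TKO-tagged pair, both on log axes, with values under 0.01 drawn at 0.01 and the dashed line at equal levels. Every gene lies below the line, and Gc (32.4% of its TKO-tagged level) comes nearest in Sox9-derived and Cfb (28.5%) in Ck19-derived organoids.

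Between the organoids, Gc and C3 stood higher and Ambp and Rbp4 lower in the Sox9-derived pair, but by edgeR 0 of the 43 genes passed the adjusted threshold. Of the 43, 17 passed the filter on low counts and were tested among 16653 genes. Over all genes 0.570% passed (95 genes), 0.186% as higher and 0.384% as lower. Of the 17 genes, 8 had an unadjusted p under 0.05, as did 2792 of all genes. DESeq2 called 4 as higher (C3, Gc, Ttr and Serping1) and 3 as lower (Ambp, Rbp4 and F5), beside 3.90% of all genes as higher and 5.18% as lower. Limma-voom called 2 as higher (C3 and Gc) and 0 as lower, beside 0.162% and 0.396% of all genes. The edgeR count depended on single libraries, with 4 higher and 5 lower without Sox9-derived replicate 1, 3 and 2 without Sox9-derived replicate 2, and 0 without either Ck19-derived library. Over all genes, the 95 calls were 1394 without Sox9-derived replicate 1, 975 without replicate 2, and 0 without either Ck19-derived library. The median log2 fold change of the 17 was -0.23, against 0.01 over all genes. Of the 17 genes tested, both Sox9-derived libraries lay above both Ck19-derived libraries for 7 and below for 5, with 5 overlapping, while 24.6% of all genes tested lay above and 26.3% below. The 26 genes under the filter add 2 above, 10 below and 14 overlapping, most of them on a few fragments.

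**Figure D4:**
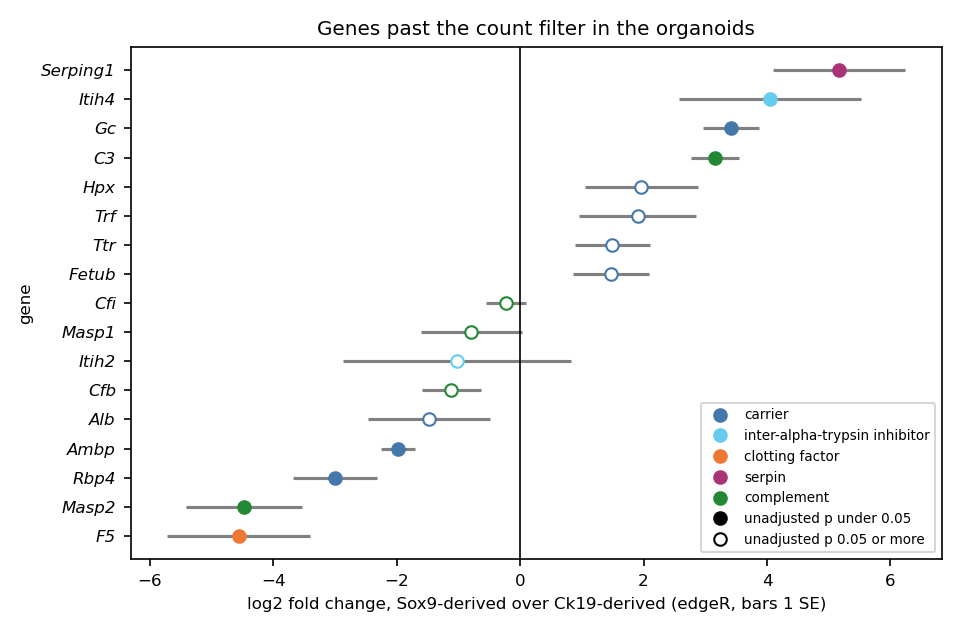
Log2 fold change, Sox9-derived over Ck19-derived organoids, of the 17 genes past the count filter, with bars of 1 standard error and filled points for an unadjusted p under 0.05. Gc (3.41) and C3 (3.16) have short bars above 0 and Ambp (-1.98) a short bar below it, while the ends of the scale, Serping1 and F5, rest on few fragments.

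Among the carriers, albumin and the fetuin Ahsg were near the top of the TKO-tagged libraries and at 20.4 CPM or less in every organoid library. Alb (chr5:90460897-90476602), which carries fatty acids and keeps fluid in the vessels, had 21740 and 13158 CPM in the TKO-tagged pair, 9.40 and 1.24 CPM in Sox9-derived and 20.4 and 9.10 CPM in Ck19-derived organoids. Its log2 fold change was 12.49 over Sox9-derived (adjusted p = 0.00421) and 10.997 over Ck19-derived organoids (adjusted p = 0.00503, edgeR). Within the organoid pairs, replicate 2 held 0.132 (Sox9-derived) and 0.447 (Ck19-derived) of its level in replicate 1. Between the organoids its libraries overlapped and it missed the threshold, with a log2 fold change of -1.48 (SE 0.99, adjusted p = 0.526), though without Sox9-derived replicate 1 it passed (-3.56, adjusted p = 0.00879). Gc (chr5:89417522-89457898), the vitamin D-binding protein and a member of the albumin gene family, had 7717 and 9424 CPM in the TKO-tagged pair, 3349 and 2195 CPM in Sox9-derived and 350 and 168 CPM in Ck19-derived organoids. Gc was thus at 32.4% of its TKO-tagged level in Sox9-derived and 3.03% in Ck19-derived organoids, against 0.0305% and 0.0844% for Alb. Sox9-derived over Ck19-derived, its log2 fold change was 3.41 (SE 0.45, adjusted p = 0.0687, edgeR), and under the other tests and fits without 1 library it ran from 2.95 to 4.05.

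Ambp and Rbp4 were ordered the other way between the organoids. Ambp (chr4:63143275-63154799) encodes the precursor of alpha-1-microglobulin and of bikunin, the light chain that joins heavy chains in the inter-alpha-trypsin inhibitors. It had 3231 and 3948 CPM in the TKO-tagged pair, 188 and 113 CPM in Sox9-derived and 589 and 596 CPM in Ck19-derived organoids. Sox9-derived over Ck19-derived, its log2 fold change was -1.98 (SE 0.28, adjusted p = 0.0753, edgeR). Rbp4, the plasma carrier of retinol, had 4508 and 5043 CPM in the TKO-tagged pair, 13.9 and 4.22 CPM in Sox9-derived and 94.6 and 49.5 CPM in Ck19-derived organoids (log2 fold change -3.00 between the organoids, adjusted p = 0.138). Ttr, transthyretin, binds retinol-bound Rbp4 and thyroid hormone, and it had 6981 and 2980 CPM in the TKO-tagged pair, 162 and 543 CPM in Sox9-derived and 103 and 149 CPM in Ck19-derived organoids. For Ttr the Sox9-derived libraries lay above those of Ck19 (log2 fold change 1.496, adjusted p = 0.314, edgeR), with 0.36 without Sox9-derived replicate 2 and 2.13 without replicate 1. Partners in the retinol complex thus stood in opposite order, with neither called by edgeR and both by DESeq2.

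The haem and iron carriers were low in culture apart from transferrin. Trf, the iron carrier transferrin, had 629 and 1011 CPM in the TKO-tagged pair, 104 and 15.0 CPM in Sox9-derived and 21.5 and 9.95 CPM in Ck19-derived organoids, so its organoid libraries overlapped, and another annotated gene shares 63.5% of its exon bases. Hp, haptoglobin, which binds free haemoglobin, had 9488 and 8044 CPM in the TKO-tagged pair, 1.04 and 0 CPM in Sox9-derived and 0 in both Ck19-derived libraries. That is at least 187970-fold higher in the TKO-tagged than in the Ck19-derived pair, counting the Ck19-derived pair at 3 fragments in all. Hpx, the haem carrier hemopexin, had 7611 and 8565 CPM in the TKO-tagged pair, 1.07 and 0.664 CPM in Sox9-derived and 0.345 and 0.0916 CPM in Ck19-derived organoids.

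Ahsg, fetuin A, which keeps calcium phosphate in solution, had 20735 and 10710 CPM in the TKO-tagged pair, 0 and 0.0603 CPM in Sox9-derived and 0.0627 and 0.0305 CPM in Ck19-derived organoids. Its neighbour Fetub lies 18.9 kb away and encodes fetuin B. Fetub had 373 and 446 CPM in the TKO-tagged pair, 1.91 and 1.78 CPM in Sox9-derived and 0.533 and 0.794 CPM in Ck19-derived organoids. Vtn, the adhesive protein vitronectin, had 4060 and 4881 CPM in the TKO-tagged pair and between 0.0302 and 0.0916 CPM in the 4 organoid libraries. The fold between the pairs was thus smaller for Fetub (log2 8.57 over Sox9-derived and 10.03 over Ck19-derived) than for Ahsg, which had 2 fragments over the Sox9-derived and 3 over the Ck19-derived pair.

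The heavy chain genes of the inter-alpha-trypsin inhibitor family each stood at 4.55 CPM or less in every organoid library. Some heavy chains, though not all, join the light chain and attach to hyaluronan in the matrix around cells. Ambp, which encodes the light chain, stood at 113 CPM or more. Itih1, Itih3 and Itih4 lie side by side on chromosome 14. Itih4 had 2097 and 1686 CPM in the TKO-tagged pair, 0.710 and 1.93 CPM in Sox9-derived and 0 and 0.153 CPM in Ck19-derived organoids, which is 90 against 5 fragments between the organoid pairs (ratio of CPM 16.7, 95% counting interval 6.89 to 52.6, edgeR adjusted p = 0.272). Itih3 had 877 and 828 CPM in the TKO-tagged pair, 0 and 0.0302 CPM in Sox9-derived and 0.439 and 0.0611 CPM in Ck19-derived organoids. Itih1 had 305 and 165 CPM in the TKO-tagged pair and at most 0.0627 CPM in an organoid library. Itih2 had 492 and 514 CPM in the TKO-tagged pair, 3.28 and 0 CPM in Sox9-derived and 2.13 and 4.55 CPM in Ck19-derived organoids, so that 120 fragments in 1 Sox9-derived library stood against 0 in the other.

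Fibrinogen was abundant in the TKO-tagged pair and at the edge of detection in culture. Its chains Fga, Fgb and Fgg are encoded within a stretch of chromosome 3 with gaps of 11026 bases between Fgg and Fga and 6513 bases between Fga and Fgb. In the TKO-tagged pair Fga had 3271 and 7886 CPM, Fgb 5969 and 11752 CPM and Fgg 2736 and 6933 CPM. Over the Sox9-derived pair they had 3, 4 and 3 fragments, and over the Ck19-derived pair 1, 2 and 2. The Fgb ratio was 157380 over Sox9-derived (95% counting interval 61467 to 577610) and 291610 over Ck19-derived organoids (80727 to 2408000). The median log2 fold change of the 4 genes was 17.52 over Sox9-derived and 18.28 over Ck19-derived organoids, the largest of the 6 roles in both comparisons. F13b, the carrier subunit of factor XIII, which cross-links fibrin, had 60.8 and 178 CPM in the TKO-tagged pair, 0 and 0.0302 CPM in Sox9-derived and 0.125 and 0 CPM in Ck19-derived organoids.

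The clotting factors as a group summed to 8944 and 7749 CPM in the TKO-tagged pair, 0.328 and 0.121 CPM in Sox9-derived and 3.01 and 8.98 CPM in Ck19-derived organoids. Kng1, kininogen, the source of bradykinin, had 4357 and 3215 CPM in the TKO-tagged pair and 0 in the 4 organoid libraries, at least 87281-fold and 80863-fold higher than over Sox9-derived and Ck19-derived pairs counted at 3 fragments each. Its near-identical copy Kng2 had 526 and 600 CPM in the TKO-tagged pair and 0 in the organoids, and counts of such copies are uncertain. F2, prothrombin, had 2202 and 1926 CPM in the TKO-tagged pair, 0 in both Sox9-derived and 0.125 and 0.0611 CPM in Ck19-derived libraries. Plg, plasminogen, had 1145 and 1271 CPM in the TKO-tagged pair, 0 in both Sox9-derived and 0 and 0.763 CPM in Ck19-derived libraries. For prothrombin and plasminogen the organoid pairs thus held 0 and 0 fragments from Sox9-derived and 6 and 25 from Ck19-derived cells.

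Factors VII, IX and X, which need vitamin K, were detected in both TKO-tagged libraries and hardly in the organoids. F10, factor X, had 649 and 710 CPM in the TKO-tagged pair, and F7, factor VII, which lies 1498 bases from it on chromosome 8, had 108 and 173 CPM. F9, the factor lacking in haemophilia B, had 63.2 and 72.6 CPM in the TKO-tagged pair. Over the Sox9-derived pair F7 and F9 had 0 fragments and F10 had 1, and over the Ck19-derived pair they had 3, 2 and 6. Of the contact factors, F12 had 316 and 305 CPM in the TKO-tagged pair, 0 and 0.0302 CPM in Sox9-derived and 1.00 and 0.0611 CPM in Ck19-derived organoids. F11 had 49.5 and 23.3 CPM in the TKO-tagged pair and 0 and 0 fragments in Sox9-derived against 3 and 1 in Ck19-derived organoids.

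F5 stood apart from the other clotting factors in the Ck19-derived organoids. Factor V, the cofactor of factor X, had 55.1 and 53.1 CPM in the TKO-tagged pair, 0.300 and 0.0905 CPM in Sox9-derived and 1.57 and 7.94 CPM in Ck19-derived organoids. Its Ck19-derived level was 8.79% of the TKO-tagged level, against 0.361% for the Sox9-derived level. Between the organoids its log2 fold change was -4.56 (SE 1.15, adjusted p = 0.161, edgeR, 14 against 310 fragments). Ck19-derived replicate 2 held 260 of those 310 fragments. Every other gene of this role stood at 1.00 CPM or less in each organoid library.

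Of the serpins, antithrombin had the highest level per length in the TKO-tagged pair. Serpinc1, antithrombin, which inhibits thrombin and factor X, had 2646 and 6157 CPM in the TKO-tagged pair, 0.0546 and 0.241 CPM in Sox9-derived and 0.157 and 0.244 CPM in Ck19-derived organoids, and another gene shares 34.4% of its exon bases. Serpinf2, the plasmin inhibitor alpha-2-antiplasmin, had 1040 and 1216 CPM in the TKO-tagged pair, 0 in both Sox9-derived and 0.721 and 0.183 CPM in Ck19-derived libraries. Its neighbour Serpinf1, which encodes pigment epithelium-derived factor and lies 9.03 kb away, had 376 and 760 CPM in the TKO-tagged pair and 1 fragment over the 4 organoid libraries. Serpinf1 and Serpinf2 were thus at 0 in both Sox9-derived libraries. Serpind1, heparin cofactor II, had 941 and 804 CPM in the TKO-tagged pair, 0.0273 and 0.0302 CPM in Sox9-derived and 0 and 1.04 CPM in Ck19-derived organoids. Serping1, the C1 inhibitor, had 465 and 807 CPM in the TKO-tagged pair, 0.574 and 1.90 CPM in Sox9-derived and 0.0314 and 0.0305 CPM in Ck19-derived organoids. Its 84 against 2 fragments between the organoid pairs give a ratio of CPM of 38.9 (95% counting interval 10.4 to 327, edgeR adjusted p = 0.124), with the Sox9-derived libraries above those of Ck19.

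Among the complement genes, the organoids expressed C3, Cfi, Cfb and, at a lower level, Masp1. The terminal components C6, C8a, C8b and C9 were not detectable in them. A further C8 gene outside the 43, C8g, was detected, at 4.84 and 2.05 CPM in Sox9-derived and 7.31 and 2.47 CPM in Ck19-derived organoids. C3 (chr17:57203970-57228136) had 2421 and 3658 CPM in the TKO-tagged pair, 460 and 424 CPM in Sox9-derived and 65.7 and 33.0 CPM in Ck19-derived organoids. Sox9-derived over Ck19-derived, its log2 fold change was 3.16 (SE 0.39), with the smallest adjusted p of the 17 genes tested, 0.0640 by edgeR. Under limma-voom that adjusted p was 0.0394 and under DESeq2 1.48e-15, and with the 6 libraries in 1 edgeR fit it was 0.104. Cfi (chr3:129835884-129875332), the protease that inactivates C3b, had 490 and 651 CPM in the TKO-tagged pair, 67.5 and 124 CPM in Sox9-derived and 110 and 117 CPM in Ck19-derived organoids. Its difference between the organoids was small beside its spread (log2 fold change -0.23, SE 0.32, adjusted p = 0.778) and changed sign without Sox9-derived replicate 1 (0.16). Cfb, factor B, a partner of C3b in the alternative pathway, had 26.4 and 31.2 CPM in the TKO-tagged pair, 3.03 and 4.55 CPM in Sox9-derived and 10.1 and 6.38 CPM in Ck19-derived organoids, and another annotated gene shares 79.5% of its exon bases. It had the smallest log2 fold change of the 43 genes over Ck19-derived organoids, 2.58 (adjusted p = 0.00938, edgeR).

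The components of the membrane attack complex, which forms pores in target cells, were present in the TKO-tagged pair. C9 had 409 and 265 CPM there, C8b 102 and 194 CPM, C8a 100 and 125 CPM and C6 64.4 and 81.2 CPM. Over the Sox9-derived pair C6, C8a, C8b and C9 had 2, 0, 1 and 0 fragments, and over the Ck19-derived pair 0, 0, 1 and 2. At this depth 3 fragments over a pair come to 0.0430 CPM in the Sox9-derived and 0.0464 CPM in the Ck19-derived pair, so expression of these genes in culture was not detectable above about that level. Of the lectin pathway, Mbl2, a mannose-binding lectin, had 192 and 58.9 CPM in the TKO-tagged pair, 0 in both Sox9-derived and 0.0941 and 0 CPM in Ck19-derived libraries. The lectin pathway protease Masp1 had 42.8 and 15.3 CPM in the TKO-tagged pair, 2.13 and 1.36 CPM in Sox9-derived and 4.77 and 1.25 CPM in Ck19-derived organoids, which overlapped. Its relative Masp2 had 84.4 and 97.1 CPM in the TKO-tagged pair, 0.0546 and 0.0302 CPM in Sox9-derived and 1.41 and 0.641 CPM in Ck19-derived organoids. Masp2 shares 54.9% of its exon bases with Tardbp, and its organoid difference was 3 against 66 fragments (ratio of CPM 0.0421, 95% counting interval 0.00847 to 0.129, edgeR adjusted p = 0.124).

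The TKO-tagged libraries had nearly the same total but divided it differently. The share of the 43 genes that differed was not far from that of all genes at a like level. In replicate 2 over replicate 1, 27 of the 43 genes were higher and 16 lower by CPM. By 1.5-fold or more, 11 (25.6%) were higher and 8 (18.6%) lower, against 19.6% and 15.9% of the 8008 genes whose mean CPM reached 10. F13b (2.92-fold), Fgg (2.53-fold), Fga (2.41-fold), Serpinc1 (2.33-fold), Serpinf1 (2.02-fold) and Fgb (1.97-fold) were higher in replicate 2. Mbl2 (0.307), Masp1 (0.357), Ttr (0.427), F11 (0.470), Ahsg (0.517) and Alb (0.605) were lower. All 4 genes of fibrinogen and factor XIII were on the higher side, and their sum was 26750 CPM in replicate 2 and 12036 CPM in replicate 1, while the carriers summed to 68211 CPM in replicate 2 and 87071 CPM in replicate 1. The erythroid markers differed in the same direction as fibrinogen (2538 CPM in replicate 2 and 301 CPM in replicate 1), and their part in the difference was not tested. With 1 library each, these differences have no replicate check. In the organoids, of the 12 genes with over 100 fragments in the pair, 10 in Sox9-derived and 9 in Ck19-derived differed by 1.5-fold or more between replicates. No share over all genes was taken for the organoids. These counts therefore do not show whether the plasma protein genes differed more between replicates than other genes.

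**Figure D5:**
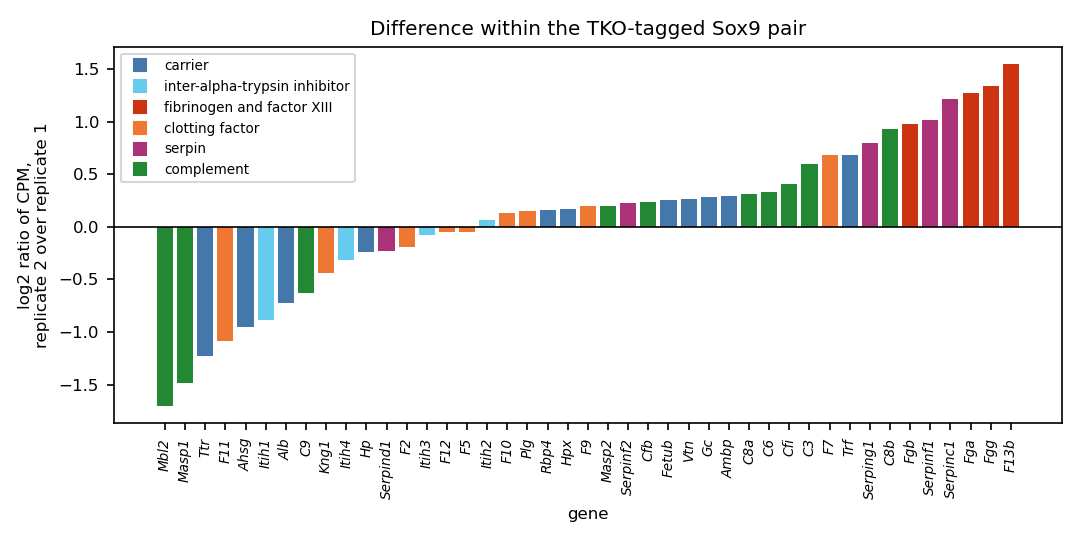
Log2 ratio of CPM, replicate 2 over replicate 1 of the TKO-tagged pair, for each of the 43 genes in rising order, coloured by role. The fibrinogen chains and F13b stand at the right end, with Mbl2, Masp1 and Ttr at the left.

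Other genes of these pathways were read from lists chosen with the roles. Of 38 further plasma proteins made by hepatocytes, 34 passed as higher against Ck19-derived and 37 against Sox9-derived organoids, and 0 as lower. Over all genes tested 14.4% and 14.7% passed as higher, and 13.1% and 12.2% as lower. The median log2 fold changes of the 38 were 11.16 and 10.92. The largest fits were those of Serpina3k, a protease inhibitor, at 3328 and 1609 CPM, and Orm1, an acute-phase carrier, at 135 and 958 CPM in the TKO-tagged pair, both with 0 fragments in the 4 organoid libraries. Next against Ck19-derived organoids came Apoh, which binds phospholipid, at 2728 and 2523 CPM in the TKO-tagged pair, 0 and 0.633 CPM in Sox9-derived and 0.0314 and 0 CPM in Ck19-derived organoids, and Lcat, which esterifies plasma cholesterol, at 397 and 445 CPM, 0.219 and 0.121 CPM, and 0 and 0 CPM. Between the organoids 17 of the 38 were tested and 0 passed by edgeR, beside 0.570% of all genes. Habp2, a plasma protease that binds hyaluronan, stood at 178 and 280 CPM in the TKO-tagged pair, 105 and 598 CPM in Sox9-derived and 91.5 and 128 CPM in Ck19-derived organoids, so it overlapped between the TKO-tagged and Sox9-derived pairs (edgeR adjusted p = 0.909).

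The list of regulators that act at cell surfaces or locally, some of which are secreted, was called in both directions. Of 32, 29 were tested. Against Ck19-derived organoids 10 passed as higher and 6 as lower, beside 14.4% and 13.1% of all genes tested. Against Sox9-derived organoids 12 and 5 did so, beside 14.7% and 12.2% of all genes. The median log2 fold changes were -0.40 and 1.95. Lower in the TKO-tagged pair were F2rl1, a protease receptor, with 2 fragments over the pair against 940 in Sox9-derived and 1147 in Ck19-derived organoids, and tissue factor F3, which starts clotting, at 6.57 and 7.96 CPM, against 238 and 198 CPM in Sox9-derived and 406 and 169 CPM in Ck19-derived organoids. The urokinase receptor Plaur was lower as well, at 32.5 and 22.5 CPM against 343 and 247 CPM in Sox9-derived and 348 and 314 CPM in Ck19-derived organoids. Clu, a secreted chaperone that blocks the membrane attack complex, stood at 4509 and 4303 CPM in the TKO-tagged pair, 26062 and 21062 CPM in Sox9-derived and 14280 and 16577 CPM in Ck19-derived organoids, and was called lower against both (log2 fold change -1.63 and -1.03, edgeR adjusted p = 0.01004 and 0.0347). Higher in the TKO-tagged pair were the C1q chains, with C1qb at 274 and 165 CPM against at most 0.336 CPM in an organoid library, and the receptor C5ar1, with 1660 fragments over the TKO-tagged pair against 1 in Sox9-derived and 14 in Ck19-derived organoids. C1q and C5ar1 are known from macrophages, whose markers (C1qa among them) moved in the same direction, and the part of those cells was not tested.

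Between the organoids, 22 of these 32 regulators were tested, 0 passed as higher and 2 as lower by edgeR. Over all genes tested, 0.186% passed as higher and 0.384% as lower. The complement regulator Cd55, which breaks up C3 convertases, had 10.6 and 12.97 CPM in Sox9-derived and 74.0 and 79.0 CPM in Ck19-derived organoids (log2 fold change -2.70, SE 0.23, adjusted p = 0.0389). Serpinb2, an inhibitor of plasminogen activators, had 0 in both Sox9-derived libraries against 12.3 and 14.4 CPM in Ck19-derived organoids, at least 311-fold lower with the Sox9-derived pair counted at 3 fragments (adjusted p = 0.0406). Both calls are lost without either Ck19-derived library and with the replicate block, where 0 genes were called in this comparison.

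Of 12 liver transcription factors, 6 passed as higher in the TKO-tagged pair against each kind of organoid, 0 as lower and 6 were not called. Over all genes tested, 14.4% passed as higher against Ck19-derived and 14.7% against Sox9-derived organoids. Hnf4a, a nuclear receptor that drives many hepatocyte genes, had 170 and 263 CPM in the TKO-tagged pair, 104 and 82.4 CPM in Sox9-derived and 136 and 129 CPM in Ck19-derived organoids (log2 fold change 1.99 over Sox9-derived and 1.47 over Ck19-derived, adjusted p = 0.00597 and 0.0140, edgeR). Cebpa, one of the C/EBP factors, had 20.2 and 25.6 CPM in the TKO-tagged pair, 3.99 and 7.51 CPM in Sox9-derived and 1.63 and 1.496 CPM in Ck19-derived organoids. Foxa3 had 75.8 and 143 CPM in the TKO-tagged pair, 10.3 and 5.25 CPM in Sox9-derived and 12.5 and 18.8 CPM in Ck19-derived organoids. Its relatives did not follow. Foxa2 was lower by CPM, at 19.7 and 29.5 in the TKO-tagged pair, 44.9 and 93.4 in Sox9-derived and 67.9 and 68.3 in Ck19-derived organoids. Foxa1 had 13.9 and 13.6 CPM in the TKO-tagged pair, 48.9 and 21.9 CPM in Sox9-derived and 24.7 and 9.71 CPM in Ck19-derived organoids. Between the organoids 12 of 12 were tested and 0 passed by edgeR, beside 0.570% of all genes.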

How the data were processed

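Bulk RNA was sequenced in mouse liver cells and organoids. Per the file headers, the authors deposited raw counts of fragments per gene, made with featureCounts 1.5.0-p3 on Ensembl release 87 (GRCm38), with both ends mapped, a mapping quality of at least 10 and no use of strand. Per the submitters' processing notes the tools included STAR 2.5.4b, edgeR and limma. Low mapping quality, which takes in reads that map to several places and so lowers genes with near-identical copies, removed 33.2% to 40.9% of fragments, and 51.5% to 59.7% were assigned. The deposited summaries flag 0 fragments as duplicates, so intervals and floors cover counting error only.

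Columns were tied to groups by name, and 4 more columns, whose names fit no label, were left out. By name alone, the TKO-tagged columns were a second candidate for the Sox9-derived samples. Their Krt19 and Epcam levels go against biliary organoids, and they were described apart. Chi-square per gene within pairs was 412, 118 and 62.8, above sampling noise, so each library counts once. Symbols were matched for 49326 of 49585 IDs. Genes were filtered with filterByExpr (minimum count 10), scaled by TMM and tested with edgeR 4.0.16 (quasi-likelihood, two-sided, Benjamini-Hochberg over all genes tested, threshold 0.05) in R 4.3.3, with 4 libraries for Sox9-derived against Ck19-derived organoids and 6 for the others. DESeq2 1.42.0 and limma-voom (limma 3.58.1) were alternatives, with other scalings, no filter, a replicate block and leaving out each library. CPM are on library totals. Ratios of genes with 1 to 10 fragments in a pair have exact 95% intervals, and a pair at 0 was counted at 3 fragments. The fit was tested on simulated counts. All 43 members are described, with up to 4 called genes in each direction from each pathway list by size of fold change. Habp2 was named after its values were seen. Some items are not reported here. Members and lists were chosen with earlier results of these data known.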

Additional observations from a re-analysis of the deposited data

How the results depend on the processing

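With 2 libraries a pair, the Sox9-derived against Ck19-derived result is the least settled. Its 95 calls over all genes became 1512 with DESeq2, 506 with every gene of at least 1 fragment, 14 in the fit of 3 pairs, 0 with the replicate block, 5190 with the TKO-tagged columns in place of the untagged ones, and 0 to 1394 when 1 library was left out. Plasma protein genes called higher, 0 by edgeR, were 4 with DESeq2, 2 with limma-voom, 2 with at least 1 fragment, 43 with the TKO-tagged columns and 0 to 4 without 1 library. Those called lower, also 0, were 3 with DESeq2, 2 with at least 1 fragment and 0 to 5 without 1 library. The ratio of summed CPM was 3.08 (2.71 to 3.45 without 1 library) and 1.12 without Gc, a setting chosen after seeing the data, and the median difference of log2(CPM + 1) was -0.068, so the direction of the sum is not that of the median gene.

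With the TKO-tagged columns in place, log2 fold changes turned positive for Alb (10.97), Ambp (3.35), Rbp4 (6.80), Itih2 (7.997) and F5 (4.28). They did so as well for Cfb (2.56), Cfi (3.09), Masp1 (4.03) and Masp2 (7.21). The Krt19 and Epcam levels of that pair go against biliary organoids, so these values describe another comparison. They are among the 204 results counted below. Without Sox9-derived replicate 1, Trf (-0.052) and Cfi (0.16) changed sign, and without Ck19-derived replicate 1, Masp1 (0.49) did. Without 1 library Trf ranged from -0.052 to 2.71, Cfi from -0.75 to 0.16 and Masp1 from -1.48 to 0.49. The cause of these changes was not tested. Of 204 single-gene results in this comparison, 157 kept direction and side of the threshold.

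Against Ck19-derived organoids 502 of 516 and against Sox9-derived organoids 508 of 516 single-gene results did so, with 0 reversed. The totals of 5046 and 4931 calls ranged from 1320 to 4546 and from 2474 to 4736 without 1 library, and the 4931 were 7405 on library totals. On TMM-scaled sizes the ratios of summed CPM, 95.5 and 31.0, were 163.5 and 53.6. Same-numbered replicates did not deviate together over the genes (correlations of 0.06, 0.05 and 0.03). With 2 libraries a pair, this cannot exclude a shared animal, batch or day behind the numbers. With the replicate block 0, 3938 and 3988 genes were called. Genes at 3 fragments or fewer over a pair were treated as not told from 0.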
